A study of Homo sapiens with 7 samples.

Results

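The genes described here are 60 factors of ribosome assembly and of RNA polymerase I, taken by name from the deposited expression tables and followed across 7 K562 lines. Of the 60 listed genes, 59 were found by their symbol among the 10452 genes kept after a filter on low counts, of 25702 gene IDs with counts. PPAN, a factor of 60S assembly, did not pass this filter. By their known role the 60 genes were placed in 5 classes: 25 genes of the small subunit processome and 40S assembly, 18 of 60S assembly, 6 core proteins of small nucleolar ribonucleoproteins (snoRNPs), 4 nucleolar chaperones or helicases, and 7 genes of RNA polymerase I and its initiation factors.

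K562 cells are an established line from chronic myeloid leukemia with the BCR::ABL1 fusion. The DasR lines were derived from them by stepwise exposure to dasatinib, a tyrosine kinase inhibitor that acts on BCR::ABL1, and the control lines are drug naive K562 cells and K562 cells kept in the DMSO vehicle. Early stage intermediates were the DasR lines at 10, 15 and 25 nM and late stage intermediates those at 50 and 200 nM, a grouping that the study chose from the clustering of these same libraries. Each line was sequenced once, so that the lines of a group, each at its own dose, served as its replicates, and p-values measure only the spread between these lines, which includes any effect of dose. All lines carry the fusion, and the DasR lines are intermediates of a dose escalation rather than separate selections. The study detected the BCR::ABL1 mutation p.T315I at 25, 50 and 200 nM but not at lower doses. The early stage group thus mixes lines with and without a detected mutation. The study also reported changes in genomic BCR::ABL1 and in ABCG2 expression over the dose escalation.

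Ribosomes are assembled in the nucleolus, where RNA polymerase I transcribes the ribosomal RNA precursor. Assembly factors fold, cut and modify this precursor while ribosomal proteins bind to it, and the snoRNPs guide its methylation and pseudouridylation. MYC is known to raise the transcription of many of these genes through the E-box CACGTG, and growing leukemia cells such as K562 express them at a high level.

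The drug naive library held 21007761 counts and the DMSO library 24037893. The DasR libraries held 27808639 counts (10 nM), 27844799 (15 nM), 20059656 (25 nM), 20827519 (50 nM) and 21588772 (200 nM). Within a group, the 5 pairs of lines gave a chi-square per degree of freedom from 21.1 to 70.1, so that no pair agreed within sampling noise. Levels are given as CPM (counts scaled to the library's total over the 10452 genes kept) after TMM scaling, a correction of library size. The libraries were depleted of ribosomal and non-coding RNA, and the 22 gene IDs of ribosomal RNA held between 5 and 17 counts in a library. The product of RNA polymerase I was therefore not measured, and the values below are those of the messenger RNAs of the assembly machinery.

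The label of the cells as erythroblast was set against 16 K562 and erythroid markers, and all 16 passed the filter. Their summed level was 5005 CPM in drug naive and 4374 CPM in DMSO cells, with HBG2, a fetal globin, the most abundant at 1263 and 918 CPM. It was 17378 CPM at 15 nM, the highest of the 7 lines, and 6460 CPM at 200 nM. At an FDR of 0.005, 8 of the 16 were higher in early stage and 4 in late stage intermediates, beside 7.92% and 3.42% of all genes, among them BCR and ABL1, with log2 fold changes in early stage of 2.59 (SE 0.26, FDR 0.000597) and 2.63 (SE 0.25, FDR 0.000479). Of 17 markers of other cell types 5 passed the filter, with a summed level from 87.8 CPM at 15 nM to 218 CPM at 10 nM. The most abundant was EPCAM, an epithelial adhesion gene, in the controls, at 64.5 and 75.6 CPM. The B cell gene MS4A1 had no count in 6 of the 7 libraries. This allows up to 0.150 CPM of the full library total (3 counts) for counting error alone. The endothelial gene VWF had 0.697 and 0.292 CPM in the controls and between 3.91 and 37.7 CPM in the DasR lines. The part of these markers in the results was not tested. In bulk RNA, a smaller share of a kind of cell and less RNA per cell cannot be told apart.

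Most of the ribosome assembly genes were higher in every DasR line than in the controls. In early stage intermediates 34 of the 59 genes rose and none fell at an FDR of 0.005 (quasi-likelihood test of edgeR, adjusted by Benjamini-Hochberg), where 7.92% of all 10452 genes rose and 10.1% fell. The median log2 fold change of the 59 genes was 0.72, against 0.003 for all genes. In late stage intermediates 24 rose and none fell, where 3.42% of all genes rose and 4.56% fell, with a median of 0.71 against -0.004. All 24 genes that rose in late stage also rose in early stage, but both comparisons used the same 2 control lines. Over all genes, 682 of the 834 called in late stage were also called in early stage. At an FDR of 0.05, 46 genes were higher and 1 lower in early stage (22.6% and 24% of all genes), and 43 were higher and 1 lower in late stage (16.2% and 17.6%). The lower gene was UTP6 in both. At an unadjusted p under 0.05, 1 gene was lower in each stage, and at an FDR of 0.005 DESeq2 called 1 gene lower in early and 0 in late stage and limma voom 0 in both.

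Together, the 60 genes took 0.652% of the counts of drug naive cells and 0.765% of those of DMSO cells. Their share was 0.981% (10 nM), 0.983% (15 nM), 1.06% (25 nM), 0.995% (50 nM) and 1.07% (200 nM) in the DasR lines. The share in every DasR line was above that of both controls. Gene by gene, 49 of the 59 were higher in all 5 DasR lines than in both controls, compared with 24.4% of all genes tested.

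**Figure D1:**
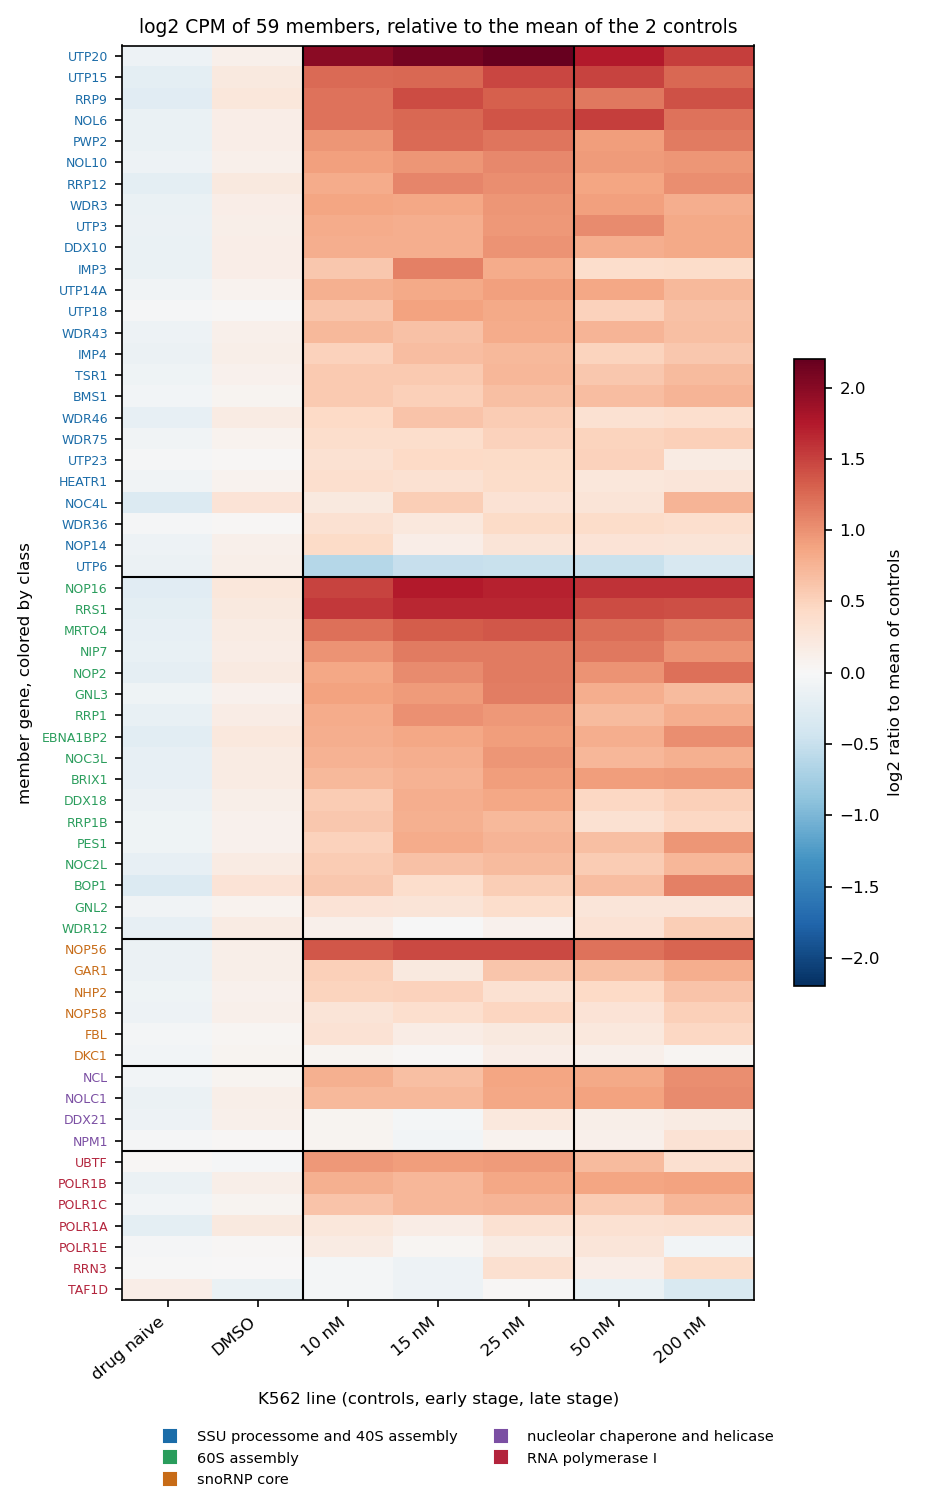
Heat map of log2 CPM of the 59 tested members (rows, in order of the early stage change within each class) in the 7 K562 lines (columns), as the difference from the mean of the 2 controls, where red is higher and blue lower. Nearly all rows are red in the 5 DasR lines, while UTP6 is blue in all 5. UTP20 has the largest difference at 10, 15, 25 and 50 nM, and NOP16 at 200 nM.

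The 2 control lines were themselves not equal in these genes. Of the 59 genes, 57 were higher in the DMSO than in the drug naive line, compared with 51.8% of all genes, and the median difference was 0.26 on the log2 scale against 0.01. BOP1, a 60S assembly factor, had 78.4 CPM in the drug naive and 120 CPM in the DMSO line, and NOC4L, of 40S assembly, 20.7 and 31.2 CPM. With a single library of each control, this difference could not be tested. Without the drug naive line, the median over the 59 genes was 0.60 in early and 0.57 in late stage, but the number that rose was 5 in early and 0 in late stage, and the calls over all genes fell from 1881 to 187 and from 834 to 30. The 5 genes were UTP20, NOP16, RRS1, MRTO4 and NOP56. Without the DMSO line, 17 rose in early stage and 5 in late stage, with 461 and 95 calls over all genes. Without the 10 nM line, 27 and 14 rose, with 1127 and 590 calls over all genes. Without the 15 nM line, these numbers were 18 and 15, with 878 and 601 calls, and without the 25 nM line 8 and 6, with 533 and 276 calls. Without the 50 nM line they were 34 and 4, with 2074 and 301 calls, and without the 200 nM line 33 and 3, with 2071 and 292 calls.

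The classes differed in their medians, though the differences between classes were not tested. Median log2 fold changes in early and late stage were 0.78 and 0.71 for 40S assembly, 0.83 and 0.82 for 60S assembly, 0.41 and 0.47 for the snoRNP core, 0.42 and 0.57 for chaperones and helicases, and 0.24 and 0.32 for RNA polymerase I. In early stage, 16 of 25, 12 of 17, 1 of 6, 2 of 4 and 3 of 7 genes of these classes rose at an FDR of 0.005, beside 7.92% of all genes. In late stage, these numbers were 12, 7, 1, 2 and 2, beside 3.42% of all genes. With 1 library left out, the median of the RNA polymerase I class ranged from 0.10 to 0.45 in early and from 0.27 to 0.49 in late stage, lowest without the drug naive and highest without the DMSO line. Relative to the mean of the controls, the 60S class lay between 0.72 and 0.94 in the 5 DasR lines and the RNA polymerase I class between 0.16 and 0.35.

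**Figure D2:**
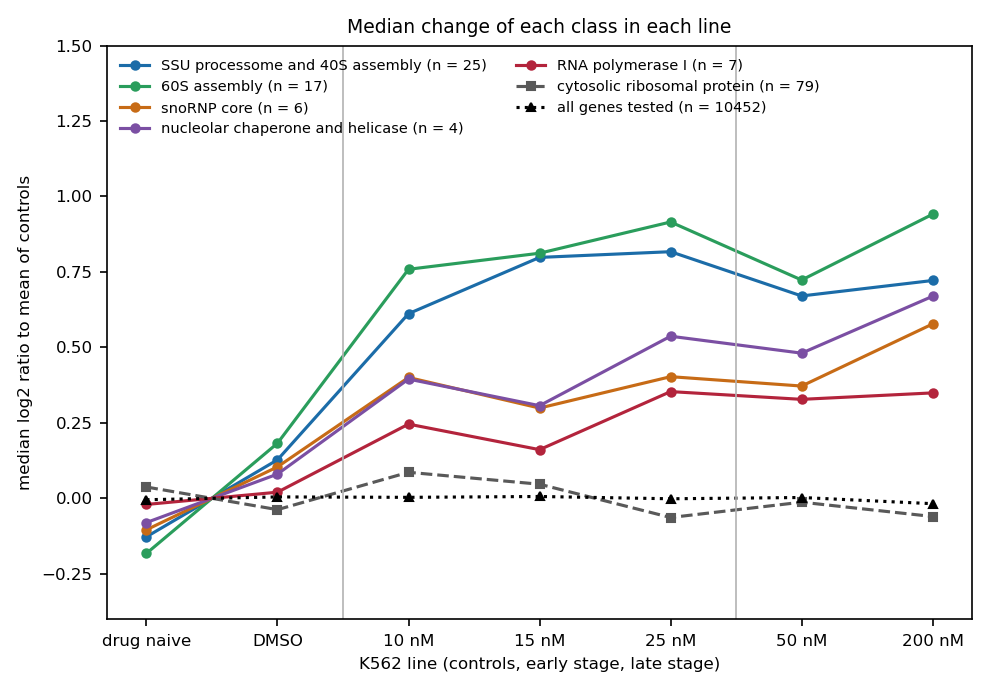
Median log2 CPM of each class relative to the mean of the 2 controls (y axis) in each K562 line (x axis), with cytosolic ribosomal protein genes and all genes tested for comparison. The 60S and 40S assembly classes lie highest in all 5 DasR lines, the RNA polymerase I class lowest of the 5 classes, and the ribosomal protein genes lie between -0.06 and 0.09.

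Promoter sequences from 250 bases before to 50 bases after the start of transcription were taken from RefSeq on GRCh38.p14 for 50 of the 60 genes. CACGTG, which reads the same on both strands, was present in 20 of the 50 (40%), against 13.3% of 8339 tested genes and 8.77% of 27305 genes with such a sequence. Of the 671 genes that rose in early stage and had such a sequence, 20.6% held it. By class it was found in 10 of 22 genes of 40S assembly, 7 of 14 of 60S assembly, 2 of 5 of the snoRNP core, 1 of 3 chaperones or helicases and 0 of 6 of RNA polymerase I. Of the 23 copies in these promoters, 19 began within 50 bases of the start (82.6%), against 40% of the 1357 copies in tested genes. Repeats at the same distance in several promoters of a gene were counted once for members but each time for tested genes. The 2 shares are therefore not strictly alike. Of the 20 genes with the hexamer 13 rose in early stage, with a median log2 fold change of 0.81, and of 29 tested genes without it 15 rose, with a median of 0.62, a difference that was not tested. Windows of 30 bases are shown for 4 genes that rose in both stages and for 3 that did not pass an FDR of 0.005 in either, since the hexamer, in capitals, stands close to the start in all 7. They are written 5′ to 3′ on the strand of the gene, and the windows lie on GRCh37 at chr12:101673861-101673890 (UTP20, plus), chr9:33473892-33473921 (NOL6, minus), chr1:19578301-19578330 (MRTO4, plus), chr3:52720042-52720071 (GNL3, plus), chr19:40336996-40337025 (FBL, minus), chr4:110736937-110736966 (GAR1, plus) and chr10:70716360-70716389 (DDX21, plus).
UTP20: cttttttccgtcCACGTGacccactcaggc
NOL6: ggcatttccgccCACGTGggaagctatgag
MRTO4: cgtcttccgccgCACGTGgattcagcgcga
GNL3: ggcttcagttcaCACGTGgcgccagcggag
FBL: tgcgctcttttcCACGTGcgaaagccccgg
GAR1: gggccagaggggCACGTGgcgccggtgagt
DDX21: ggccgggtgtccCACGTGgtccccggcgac
With the start numbered 1, the first base of the hexamer was at -10 in UTP20, 14 in NOL6, 15 in MRTO4, 7 in GNL3, 7 in FBL, 32 in GAR1 and -31 in DDX21. FBL, GAR1 and DDX21 hold the same hexamer as the genes that rose, and DDX21 had a log2 fold change of 0.08 in early stage. GAR1 was called in late stage with DESeq2. A match of letters is a description of the sequence and says nothing of binding in these cells.

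**Figure D3:**
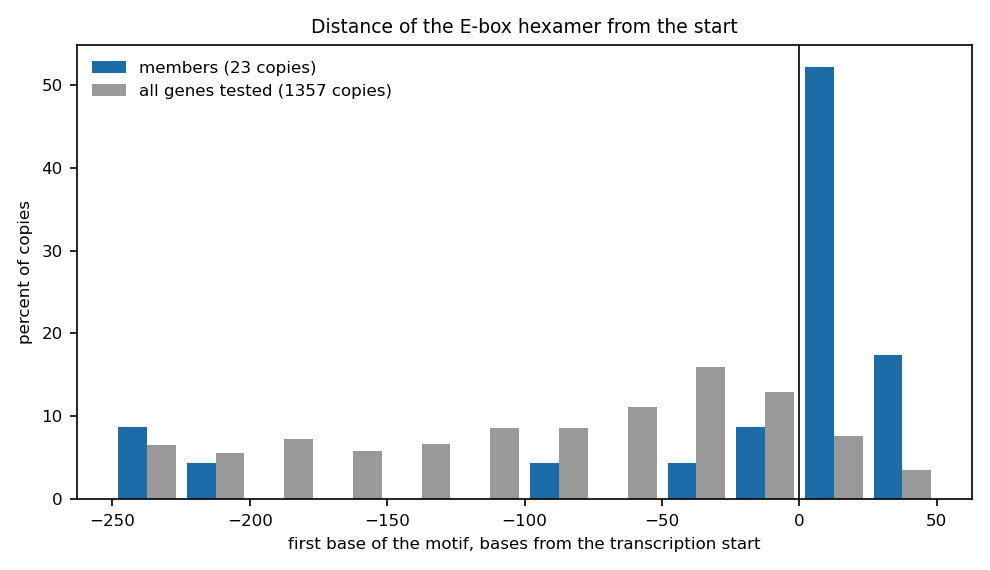
Position of the first base of CACGTG from the start of transcription (x axis, bases, 25 per bin) as a percent of all copies (y axis) in promoters of the members (blue, 23 copies) and of all genes tested (gray, 1357 copies). The largest bin of the members lies just after the start and holds 12 copies. Repeats at the same distance within a gene were counted once for members but each time for all genes tested.

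MYC itself had 241 and 236 CPM in the controls, 289.6, 267 and 281 CPM in early and 247 and 264 CPM in late stage lines. All 5 DasR lines lay above both controls, by a log2 fold change of 0.23 (SE 0.08, FDR 0.0511) in early and 0.10 (FDR 0.404) in late stage, which did not pass. Of 10 genes of the MYC network, none rose and MXD1 and MLX fell in early stage, with log2 fold changes of -1.48 (SE 0.18, FDR 0.00116) and -0.67 (SE 0.11, FDR 0.00321), beside 7.92% of all genes that rose and 10.1% that fell. In late stage none of the 10 passed an FDR of 0.005, and at an FDR of 0.05 none was higher and 2 were lower. MXD1, a repressor that competes with MYC for MAX, had 104 and 71.5 CPM in the controls and between 26.9 and 49.7 CPM in the DasR lines.

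Of the 40S class, UTP20, a scaffold protein of the small subunit processome (GeneID 27340, chr12:101673883-101780396, plus strand, GRCh37), had the largest change of all 59 genes, and its promoter holds CACGTG close to the start. It had 36.3 CPM in the drug naive and 42.5 CPM in the DMSO line. Among early stage lines it had 157, 169 and 185 CPM at 10, 15 and 25 nM, and among late stage lines 132 and 113 CPM at 50 and 200 nM. The 3 groups did not overlap. The log2 fold change was 2.11 (SE 0.13, FDR 0.000118) in early and 1.63 (SE 0.13, FDR 0.000668) in late stage.

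NOL6, a component of the UTP-C module of the processome, had 51.5 and 62.5 CPM in the controls, 129, 136 and 149 CPM in early stage and 162 and 130.2 CPM in late stage lines. The lowest DasR line was above the higher control by more than the controls differed, and the log2 fold change was 1.28 (SE 0.14, FDR 0.000714) in early and 1.36 (SE 0.15, FDR 0.00138) in late stage. NOL10, also a nucleolar factor of 40S assembly, rose from 35.2 and 40.8 CPM to between 70.9 and 78.5 CPM in early stage, with a log2 fold change of 0.97 (SE 0.10, FDR 0.000635), and by 0.95 (SE 0.11, FDR 0.00145) in late stage. UTP14A, a cofactor of the helicase DHX37, lay at 35.5 and 39.1 CPM in the controls and between 61.5 and 69.5 CPM in the 5 DasR lines, with log2 fold changes of 0.84 (SE 0.09, FDR 0.000829) and 0.79 (SE 0.10, FDR 0.00223). UTP15, of the UTP-A module that meets the early precursor, had 16.02 and 21.5 CPM in the controls, 44.3, 44.9 and 51.8 CPM in early and 52.5 and 44.9 CPM in late stage lines. Its log2 fold changes of 1.32 (SE 0.16, FDR 0.00105) and 1.37 (SE 0.17, FDR 0.00204) both passed, and no DasR line came near the controls. The other genes of the class that rose in early stage had log2 fold changes from 0.59 in BMS1, a GTPase of the processome, to 1.30 in RRP9, a protein of the U3 snoRNP.

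UTP6, which belongs to the UTP-B module (GeneID 55813, chr17:30187923-30228727, minus strand, GRCh37), was the exception of the class. It had 83.1 CPM in the drug naive and 99.2 CPM in the DMSO line. It had 58.6, 64.1 and 64.5 CPM in the early stage lines and 64.6 and 71.1 CPM in the late stage lines, all below both controls. The log2 fold changes of -0.55 (SE 0.11, FDR 0.00584) and -0.43 (SE 0.12, FDR 0.0292) missed an FDR of 0.005 and passed 0.05. PWP2, a partner of UTP6 in the same module, went the other way, from 50.0 and 60.6 CPM to between 104 and 131 CPM in the DasR lines, with a log2 fold change in early stage of 1.13 (SE 0.14, FDR 0.00101). PWP2 was chosen after its values were seen, and 46.6% of its exon bases lie in another annotated gene on the same strand. Whether the counting included that gene is not given in the sources used here, so the counts of PWP2 remain uncertain.

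**Figure D4:**
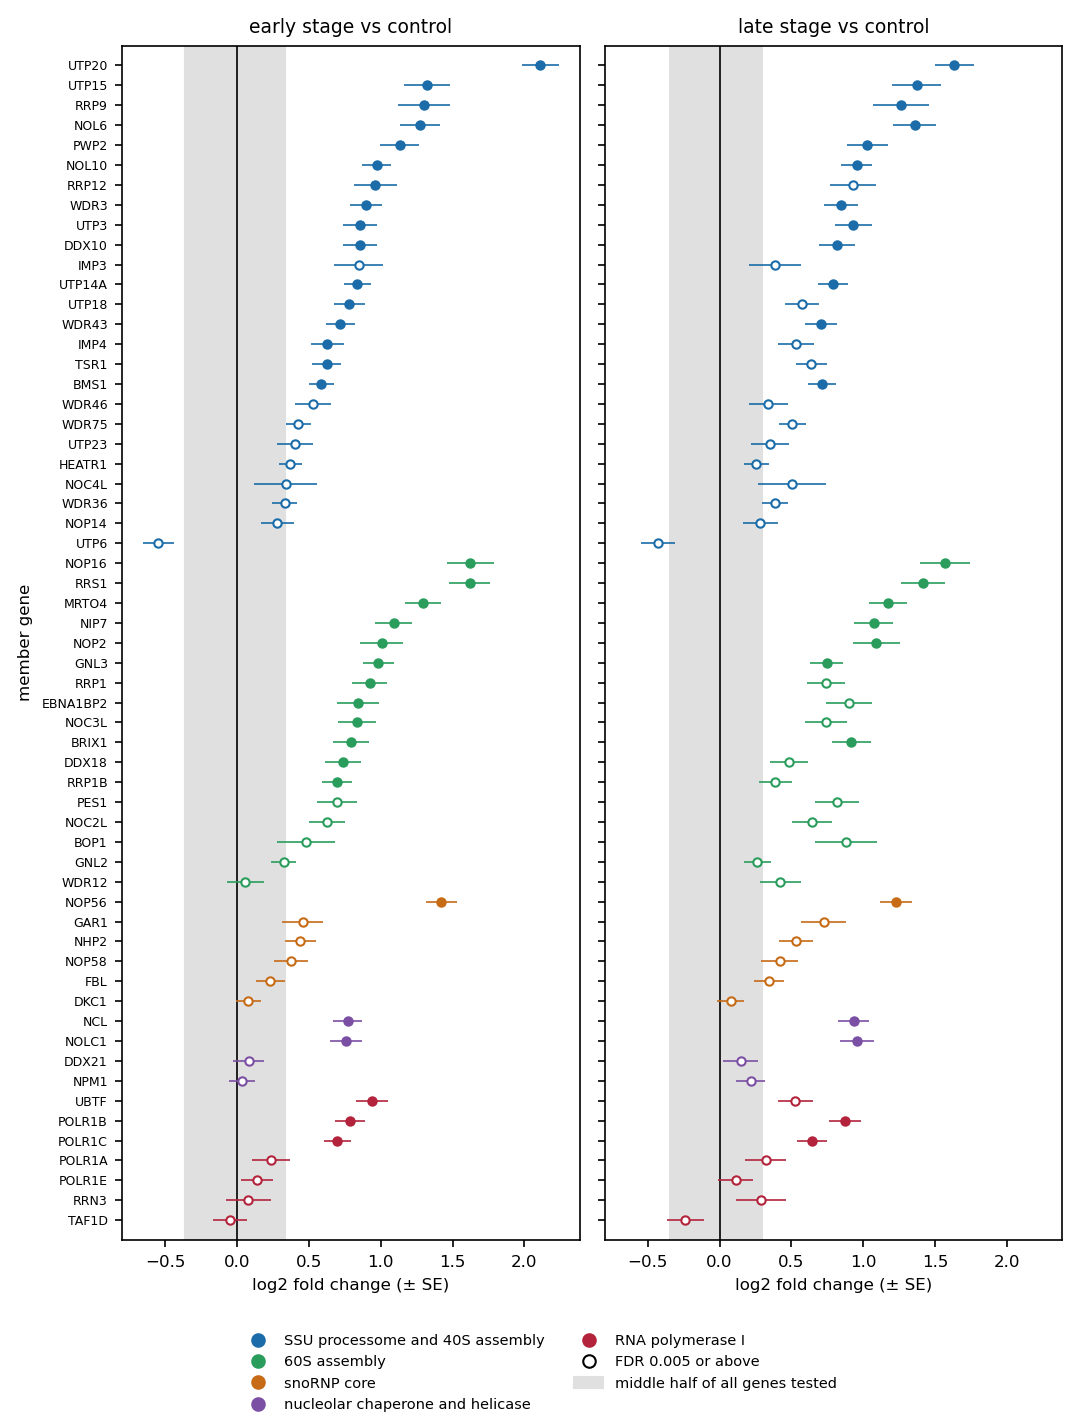
Fitted log2 fold change with its standard error (x axis) of each of the 59 tested members (y axis) in early stage (left) and late stage (right) against the 2 controls, colored by class, with filled points below an FDR of 0.005. The gray band spans the quartiles of all 10452 genes, from -0.36 to 0.33 in early stage, and most assembly factors lie to the right of it.

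Of the 60S class, RRS1, which joins the 5S particle to the precursor, rose from 10.2 and 13.7 CPM in the controls to 35.1, 37.7 and 37.8 CPM in early and 32.3 and 31.8 CPM in late stage lines. Its log2 fold changes were 1.62 (SE 0.15, FDR 0.000412) and 1.42 (SE 0.15, FDR 0.00139). NOP16, a nucleolar factor of the early 60S particle, had 15.2 and 21.7 CPM in the controls and between 51.2 and 61.0 CPM in all DasR lines, with log2 fold changes of 1.62 (SE 0.16, FDR 0.000597) and 1.57 (SE 0.17, FDR 0.00142). The early stage level of RRS1 was thus 3.07 and that of NOP16 3.08 times the control level. Of the exon bases of RRS1 11.3% and of NOP16 12.3% lie in another coding gene.

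MRTO4, a placeholder for the stalk protein on the 60S particle, had 55.8 and 72.0 CPM in the controls, 147, 159.7 and 164 CPM in early stage and 149 and 139 CPM in late stage lines. The log2 fold changes were 1.30 (SE 0.13, FDR 0.000531) and 1.17 (SE 0.13, FDR 0.00153). GNL3, the nucleolar GTPase nucleostemin, had 83.9 and 95.7 CPM in the controls, 166, 171 and 195 CPM in early and 156 and 145 CPM in late stage lines. Its early values were the higher ones, with log2 fold changes of 0.98 (SE 0.11, FDR 0.000808) and 0.74 (SE 0.12, FDR 0.00448), but the groups of DasR lines were not told apart by the test between them. The late stage call of GNL3 was lost with total counts only, with the late stage and control lines alone and with any of the 7 libraries left out.

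The 3 genes of the PeBoW complex, which acts in 60S maturation, did not pass an FDR of 0.005 in either stage, where 7.92% and 3.42% of all genes rose. WDR12 had a log2 fold change of 0.06 (SE 0.13, FDR 0.741) in early and 0.42 (SE 0.14, FDR 0.0543) in late stage, PES1 of 0.69 (SE 0.14, FDR 0.00663) and 0.82 (SE 0.15, FDR 0.00766), and BOP1 of 0.48 (SE 0.20, FDR 0.0867) and 0.88 (SE 0.22, FDR 0.0208). PES1 passed in both stages with DESeq2 and without a filter, and in early stage also with only the early stage and control lines in the fit and without the 50 nM line, and BOP1 passed in late stage with DESeq2. These 3 genes were chosen after their values were seen. PPAN, left out by the filter, had 77 and 106 counts in the controls, 220, 243 and 155 in early and 150 and 144 in late stage lines, or between 6.68 and 8.80 CPM in the DasR lines and 3.83 and 4.43 CPM in the controls. With a filter of 1 CPM its log2 fold change was 0.999 (SE 0.18, FDR 0.00485) in early and 0.79 (SE 0.19, FDR 0.0218) in late stage, and without a filter the FDR was 0.006 and 0.035. Of its exon bases 47.6% also belong to the readthrough gene PPAN-P2RY11.

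Among the 6 snoRNP core members, NOP56 alone passed an FDR of 0.005. NOP56 (GeneID 10528, chr20:2633239-2639039, plus strand, GRCh37), a scaffold of the box C/D snoRNPs that methylate ribosomal RNA, had 97.6 and 118 CPM in the controls, 277, 295 and 294.6 CPM in early and 246 and 259.8 CPM in late stage lines. The log2 fold change was 1.42 (SE 0.11, FDR 0.000191) in early and 1.23 (SE 0.11, FDR 0.000887) in late stage. The other box C/D proteins had smaller values. SNU13, counted among the other snoRNP genes and named after its values were seen, rose in both stages, with log2 fold changes of 0.47 (SE 0.08, FDR 0.00379) and 0.63 (SE 0.09, FDR 0.00302). NOP58, the partner of NOP56, had log2 fold changes of 0.38 (SE 0.12, FDR 0.0333) and 0.42 (SE 0.13, FDR 0.0398), and FBL, the methyltransferase fibrillarin, of 0.23 (SE 0.10, FDR 0.0892) and 0.34 (SE 0.11, FDR 0.0432).

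Of the box H/ACA proteins, which serve pseudouridylation, NHP2 lay at 56.1 and 63.4 CPM in the controls and between 75.1 and 92.0 CPM in the DasR lines, with log2 fold changes of 0.44 (SE 0.11, FDR 0.0134) and 0.53 (SE 0.12, FDR 0.0133). Of its exon bases 28.1% lie within RMND5B on the opposite strand, and DESeq2 called it in both stages. GAR1 lay at 39.8 and 47.9 CPM in the controls and between 51.0 and 75.9 CPM in the DasR lines, with log2 fold changes of 0.46 (SE 0.14, FDR 0.0347) and 0.73 (SE 0.16, FDR 0.0127). With DESeq2, GAR1 was called in late stage only. DKC1, the pseudouridine synthase dyskerin, had 249 and 273 CPM in the controls, 273, 266 and 287 CPM in early and 283 and 268 CPM in late stage lines. The groups of DKC1 overlapped, and its log2 fold changes were 0.08 (SE 0.08, FDR 0.475) and 0.08 (SE 0.09, FDR 0.545).

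Of the chaperones and helicases, NCL, the abundant nucleolar protein nucleolin, had 544 and 585 CPM in the controls, 967, 888 and 1032 CPM in early and 1011 and 1145 CPM in late stage lines. NOLC1, a nucleolar chaperone that binds snoRNPs, had 159 and 190.5 CPM in the controls, 287, 285 and 313 CPM in early and 319.7 and 358 CPM in late stage lines. Neither gene had a DasR line within the range of the controls, and their log2 fold changes in early stage were 0.77 (SE 0.10, FDR 0.00145) and 0.76 (SE 0.11, FDR 0.00212), and in late stage 0.93 (SE 0.11, FDR 0.00168) and 0.96 (SE 0.12, FDR 0.00206). NPM1, the nucleolar chaperone nucleophosmin, had 1505 and 1549 CPM in the controls and between 1471 and 1904 CPM in the DasR lines, with log2 fold changes of 0.03 (SE 0.09, FDR 0.795) and 0.22 (SE 0.10, FDR 0.13). DDX21, an RNA helicase of the nucleolus, had 657 and 763 CPM in the controls and between 689 and 829 CPM in the DasR lines, with log2 fold changes of 0.08 (SE 0.11, FDR 0.576) and 0.15 (SE 0.12, FDR 0.376). NPM1 has 49 named pseudogenes in the annotation and NCL 2, which may share reads with them.

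In the class of RNA polymerase I, subunits and initiation factors did not move as a block. POLR1B, the second largest subunit, had 46.0 and 55.3 CPM in the controls and between 83.9 and 92.7 CPM in the DasR lines, and POLR1C, a subunit shared with RNA polymerase III, 33.5 and 36.2 CPM and between 51.1 and 58.2 CPM. The log2 fold changes of POLR1B were 0.79 (SE 0.10, FDR 0.0014) and 0.87 (SE 0.11, FDR 0.00216), and those of POLR1C 0.70 (SE 0.10, FDR 0.00173) and 0.64 (SE 0.10, FDR 0.00493). The late stage call of POLR1C lay close to the threshold and was lost with limma voom, with total counts only, with a filter of 1 CPM, with the late stage and control lines alone and with any of the 7 libraries left out. POLR1A, the largest subunit, had 88.6 and 119 CPM in the controls and between 115 and 130.2 CPM in the DasR lines, with log2 fold changes of 0.24 (SE 0.13, FDR 0.178) and 0.32 (SE 0.14, FDR 0.123). POLR1E, a subunit specific to RNA polymerase I, had log2 fold changes of 0.14 (SE 0.11, FDR 0.348) and 0.11 (SE 0.12, FDR 0.506).

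UBTF, the factor that binds active ribosomal DNA (GeneID 7343, chr17:42282401-42298994, minus strand, GRCh37), had 118 and 115 CPM in the controls, 227, 219.95 and 223 CPM in early and 188 and 149 CPM in late stage lines. It was higher in each early than in each late stage line, and higher there than in the controls. The log2 fold change was 0.94 (SE 0.11, FDR 0.001) in early and 0.53 (SE 0.12, FDR 0.0153) in late stage. RRN3, which brings the polymerase to the promoter, had log2 fold changes of 0.08 (SE 0.16, FDR 0.711) and 0.29 (SE 0.17, FDR 0.237). TAF1D, a subunit of the promoter selectivity factor SL1, had 91.2 and 73.7 CPM in the controls, 79.6, 75.6 and 83.7 CPM in early and 74.2 and 65.4 CPM in late stage lines, and log2 fold changes of -0.05 (SE 0.12, FDR 0.75) and -0.24 (SE 0.13, FDR 0.187). In this fit, TAF1D and UTP6 were the only genes of the 59 with a log2 fold change under 0 in either stage, and without the drug naive line the value of TAF1D in early stage was 0.10.

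Of 9 other genes of RNA polymerase I and its factors, 8 passed the filter, with a median of 0.06 in early and 0.10 in late stage. POLR1G did not pass the filter and was not tested. It had 2.59 and 3.97 CPM in the controls and between 7.73 and 10.3 CPM in the DasR lines, all above both controls. POLR1F, a subunit of the polymerase stalk, rose from 40.1 and 46.4 CPM in the controls to 77.5, 64.1 and 82.2 CPM in early and 101 CPM in both late stage lines. Its log2 fold changes of 0.79 (SE 0.13, FDR 0.0031) and 1.23 (SE 0.14, FDR 0.00147) were the only ones of the 8 to pass an FDR of 0.005, beside 7.92% and 3.42% of all genes that rose. TTF1, the termination factor, had log2 fold changes of 0.55 (FDR 0.00905) and 0.47 (FDR 0.0309). The SL1 subunits TAF1A, TAF1B, TAF1C and TBP and the subunits POLR1D and POLR1H had values from -0.35, in POLR1H, to 0.29, in TAF1A, in early stage and from -0.16 to 0.19 in late stage, and none passed an FDR of 0.05.

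**Figure D5:**
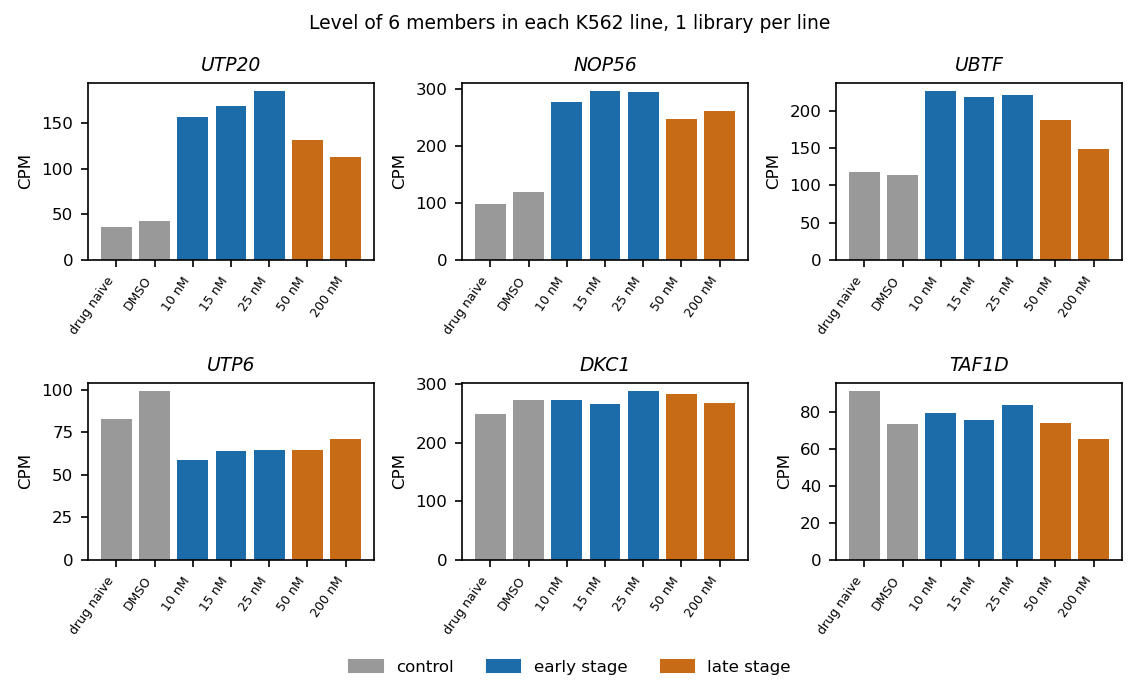
CPM (y axes, from 0) of 6 members in the 7 K562 lines, 1 library per bar, with controls in gray, early stage in blue and late stage in orange. UTP20, NOP56 and UBTF are higher in each DasR line than in both controls, UTP6 is lower in each, and the groups of DKC1 and TAF1D overlap.

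Late and early stage intermediates were compared directly in the same fit. At an FDR of 0.05 none of the 59 genes was higher and 1 was lower in late stage, where 6.6% of all genes were higher and 6.1% lower. Without the 200 nM line, which leaves 1 late stage line, no gene of 10385 tested passed by edgeR and 1951 had an unadjusted p under 0.05, against 1328 and 3450 of 10452 with all lines. This gene was UTP20, with a difference of -0.48 (SE 0.12, FDR 0.0438) by edgeR's quasi-likelihood test, and it missed the threshold without either control line, without the 15, 25 or 200 nM line, with a filter of 1 CPM and with the early and late stage lines alone. UBTF had a difference of -0.41 (SE 0.11, FDR 0.0521) and passed with DESeq2, with limma voom, with upper quartile scaling, with total counts only and without the 50 nM line. At an FDR of 0.005 none of the 59 passed, and at an unadjusted p under 0.05 1 was higher and 4 were lower. DESeq2 called 3 genes lower and limma voom 2, and neither called a gene higher. The median difference of the 59 genes was -0.01, and 28 were above 0 and 31 below.

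The level per length, as mean control CPM divided by the gene length in kb given by the authors, covered a wide range. It was highest in NPM1, at 858 CPM per kb, and in NCL, at 208, followed by FBL at 202 and DDX21 at 171. NCL and FBL differed by less than the spread of NCL between the control lines. The lowest were UTP20, at 4.37 CPM per kb, and UTP15, at 5.14.

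Other genes that act in ribosome production were counted in the same way, beside the 7.92% of all genes that rose in early and 3.42% in late stage. Of 33 further genes of 40S assembly, 10 rose in early and 4 in late stage, with medians of 0.46 and 0.43, and the smallest p-values in early stage were those of ESF1 (1.29, FDR 0.000359) and DDX47 (1.04, FDR 0.000496). Of 42 further genes of 60S assembly, 17 rose and 1 fell in early stage and 11 rose and 1 fell in late stage, with medians of 0.53 and 0.44, and the smallest p-values in early stage were those of RRP15 (1.57, FDR 0.000152) and SURF6 (1.19, FDR 0.000459). Of 12 other snoRNP genes, 3 rose and 1 fell in early stage and 2 rose in late stage, with medians of 0.29 and 0.48. The early stage calls included SHQ1, the chaperone of dyskerin (0.89, FDR 0.0023), and PIH1D1, of the R2TP complex (-0.74, FDR 0.00292). Of 14 genes of the RNA exosome, 1 rose in early stage, a share near that of all genes, and none in late stage. This gene was EXOSC3 (0.76, FDR 0.0028), while MPHOSPH6 missed the threshold (0.81, FDR 0.00534).

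The cytosolic ribosomal protein genes, whose products the assembly factors load onto the precursor, were counted in the same way. Of 79 genes, 2 rose and 1 fell in early stage and 1 rose and 1 fell in late stage, with medians of 0.02 and -0.04. RPS26 rose from 63.1 and 70.0 CPM to between 124 and 149 CPM, with a log2 fold change in early stage of 1.01 (SE 0.11, FDR 0.000746), and RPL38 rose by 0.57 (SE 0.09, FDR 0.00256). The genes took 6.04% and 5.95% of the counts in the controls and between 5.69% and 6.17% in the DasR lines.

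Genes of the other polymerases and of proliferation were set beside the same shares of all genes. Of 20 genes of RNA polymerase III, 3 rose in early and 1 in late stage, with medians of 0.18 and 0.19. GTF3A was among those that rose in early stage, with a log2 fold change of 0.92 (FDR 0.00154). Of 12 genes of RNA polymerase II, 3 rose in early and 2 in late stage, with medians of 0.34 and 0.31, and the smallest p-values in early stage were those of POLR2A (0.94, FDR 0.000537) and POLR2L (1.36, FDR 0.00268). Of 17 proliferation markers, 2 rose and 2 fell in early stage, PCNA with a log2 fold change of 1.24 (SE 0.10, FDR 0.000243) and TOP2A of -0.89 (SE 0.11, FDR 0.00105), with a median of 0.18.

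Features of the genes that bear on how reads are counted were set beside the calls. In early stage 34 of the 59 members rose, beside 7.92% of all genes. Of the tested members, 9 carry small nucleolar or Cajal body RNAs in the gene by the annotation, and 6 of them rose in early stage, compared with 28 of the other 50. Among the 9, NOP56, WDR43, TSR1, GNL3, NCL and POLR1C rose in early stage, and NOP58, DKC1 and TAF1D did not. In 11 members over 10% of exon bases lie within another coding gene, and 7 of these rose in early stage, compared with 27 of the other 48. The other gene lies on the opposite strand in 9 of the 11 and on the same strand in NOP2 and RRS1. Whether each of these other genes was part of the annotation used for counting is not given. The libraries were made with a directional kit, which keeps the strand of the RNA, but whether the counting used it is not given in the sources used here. Counted without strand, reads from overlapping parts of genes on opposite strands cannot be told apart. In 15 members with a named pseudogene, 8 rose in early stage, compared with 34 of all 59 members and 7.92% of all genes.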

How the data were processed

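The authors sequenced 1 library for each of 7 K562 lines, as paired reads. Per the labels and the study's methods, reads were aligned to hg19 with STAR and counted with featureCounts, and the authors deposited raw counts per gene for 25702 gene IDs. The libraries were directional. The versions of STAR and featureCounts and the use of strand in counting are not given in the sources used here. Deposited tables of the authors' comparisons hold a fold change, a p-value and an FDR for each gene, which were not used. Their symbol, chromosome and gene length columns were.

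The 60 members and all other gene lists were chosen with earlier results of these data known. The filter asked for 10 CPM or more in 2 or more libraries and left 10452 genes. After TMM scaling, edgeR 4.0.16 in R 4.3.3 (glmQLFit, then glmQLFTest) was run on the counts in 1 fit of 3 groups and 7 libraries, without covariates, and p-values were adjusted by Benjamini-Hochberg over all 10452 genes. A gene was called at an FDR under 0.005, the threshold of the study, and under 0.05 between late and early stage. Standard errors were derived from the log2 fold change and the F statistic. Log2 CPM values used a prior count of 2. The common dispersion was 0.0260, and depth was 20059656 to 27844799 counts per library, where 3 counts correspond to 0.108 to 0.150 CPM. For these 3 counts and for the filter, CPM was scaled to the total over all gene IDs, without TMM.

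The genes named are all snoRNP core and RNA polymerase I members, the 4 with the smallest p-value in early stage in each other class, all with a log2 fold change at or under 0, all that pass between late and early stage, those that fail the filter, those with the 2 highest and 2 lowest levels per length, and of the other lists MYC, the 2 smallest p-values per list and all of RNA polymerase I. One gene that this rule names is not reported here. Other genes named were chosen after their values were seen.

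Gene positions were read from GENCODE v44lift37 on GRCh37, the build of hg19, and promoters from RefSeq on GRCh38.p14. Windows were placed on GRCh37 by exact match, with 1 match for each of 20. Alternatives covered the test (DESeq2 1.42.0, limma 3.58.1), the scaling, the filter, the libraries in the fit, the threshold and leaving out each library in turn. The functions were tested on simulated data.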

Additional observations from a re-analysis of the deposited data

Results flagged for a closer look

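Differences between late and early stage intermediates that passed an FDR of 0.05 (quasi-likelihood test of edgeR, adjusted by Benjamini-Hochberg) were set apart among the members and the named genes, since they are effects of the same contrast that differ between stages. Over all genes 1328 passed, and between 456 and 2041 with any library but the 200 nM line left out. Without the 200 nM line none passed by edgeR, 1951 had an unadjusted p under 0.05 and the smallest FDR was 0.0855, so that each call given here is lost without that line. Of the 59 members, UTP20 was lower in late stage, with a difference of -0.48 on the log2 scale (SE 0.12, FDR 0.0438), and both late stage lines lay below all 3 early stage lines. It missed the threshold without either control line and without the 15, 25 or 200 nM line. RRP15, a further factor of 60S assembly, had a difference of -0.57 (SE 0.10, FDR 0.0196), with 105, 118 and 113 CPM in early and 79.5 and 71.6 CPM in late stage lines. PIH1D1, of the R2TP complex that assembles snoRNPs, had a difference of 0.46 (SE 0.12, FDR 0.0466), with 52.6, 48.8 and 48.1 CPM in early and 62.8 and 74.7 CPM in late stage lines. CD3D, a T cell receptor gene on the list of other cell types, had a difference of 2.41 (SE 0.50, FDR 0.0270), with 3.66, 2.75 and 8.59 CPM in early and 23.0 and 29.7 CPM in late stage lines, and 17.0 and 8.18 CPM in the controls. CD3E, of the same receptor, had at most 1.41 CPM in any line. In the lists of related genes and markers, further genes passed at the same FDR. In late stage GATA1, an erythroid transcription factor, was higher, with a difference of 0.49 (SE 0.12, FDR 0.0447), and TAL1 (-0.69, FDR 0.0354), EPOR (-0.61, FDR 0.0393) and the proliferation marker TYMS (-0.43, FDR 0.0296) were lower. Of the MYC network MAX had a difference of 0.56 (FDR 0.0387) and MGA of -0.72 (FDR 0.0348). Of 60S assembly DDX27 (-0.49, FDR 0.0443) and EIF6 (-0.60, FDR 0.0252) were lower, as were the ribosomal protein genes RPS21 (-0.48, FDR 0.0370), RPLP0 (-0.35, FDR 0.0488) and RPLP1 (-0.63, FDR 0.0373).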

How the results depend on the processing

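The median log2 fold change of the 59 members was above 0 under every alternative run. Over all settings that kept the 7 libraries in the data it lay between 0.72 and 0.74 in early and between 0.71 and 0.76 in late stage. Leaving out each library in turn, it ranged from 0.60 to 0.81 in early and from 0.57 to 0.82 in late stage. In the same way the 60S class ranged from 0.61 to 1.02 and from 0.64 to 0.93, the snoRNP core from 0.28 to 0.50 and from 0.36 to 0.58, and the RNA polymerase I class from 0.10 to 0.45 and from 0.27 to 0.49, each with the lowest value without the drug naive line.

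Counts of calls depended more on the libraries, and the calls over all genes moved with them. In early stage these were 1881, 3548 with DESeq2 and between 187 and 2074 with a library left out. In late stage they were 834, 2503 with DESeq2, 335 with only the late stage and control lines in the fit, 3542 at an FDR of 0.05 and between 30 and 601 with a library left out. In early stage, 34 members were called, between 5 and 34 with a library left out and 44 with DESeq2. They numbered 18 without the 15 nM line and 8 without the 25 nM line. In late stage, 24 were called, between 0 and 15 with a library left out, 40 with DESeq2, 3 with only the late stage and control lines in the fit and 44 at an FDR of 0.05. They numbered 14 without the 10 nM line, 15 without the 15 nM line, 6 without the 25 nM line, 4 without the 50 nM line and 3 without the 200 nM line, where fewer libraries leave fewer degrees of freedom and a lone line of a group is assumed to vary like the others. Between late and early stage, 1 was called, 3 with DESeq2, 2 with limma voom, with upper quartile scaling and with total counts only, 0 with a filter of 1 CPM, with the 2 groups only and at an FDR of 0.005, and between 0 and 2 with a library left out. UTP6 was called lower in early stage by DESeq2. In POLR1C the late stage call was lost with limma voom, with total counts only and with a filter of 1 CPM. The cause of these changes was not tested.

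Of the named genes, log2 fold changes that changed sign were all close to 0, and each did so with a library left out. Over these settings DKC1 ranged from -0.00124 to 0.13 in early and from -0.00186 to 0.13 in late stage, RRN3 from -0.0779 to 0.17 in early, POLR1E from -0.0539 to 0.26 in late, TAF1D from -0.21 to 0.10 in early, DDX21 from -0.0378 to 0.18 in early and NPM1 from -0.00282 to 0.0754 in early stage. Among other genes, POLR1D ranged from -0.18 to 0.0376 in early and from -0.21 to 0.0152 in late, POLR1H from -0.14 to 0.14 in late, TAF1B from -0.13 to 0.0194 in early, TAF1C from -0.0674 to 0.40 in early and from -0.0326 to 0.43 in late and TBP from -0.10 to 0.00437 in early stage. No paired analysis was possible, since each line was sequenced once and the lines of the groups do not form pairs. At the depth of these libraries all tested members had counts in every line.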
